A study of Mus musculus with 12 samples.

Results

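Complexes III and IV of the mitochondrial respiratory chain and ATP synthase were followed through 37 nuclear genes: 9 for subunits of complex III, 1 for its electron carrier cytochrome c, 12 for complex IV and 15 for ATP synthase. The genes were listed by name as known subunits on autosomes, by a rule that uses no measured value but was written with earlier results of these data known, and each matched a mouse gene ID among the 57010 counted. All 37 passed the filter on low counts, with 14253 genes tested in all. Symbols are those of the annotation used here, so that Atp5b is the gene also called Atp5f1b.

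Chondrocytes are the cells that make cartilage matrix, and RNA of primary cells from mice was captured by its poly(A) tail and counted in 12 libraries. The labels name 4 libraries Control, 4 WT and 4 SIRT5F101L mutant, and all 12 carry the genotype label "Wild type". The WT and SIRT5F101L cells were transfected with plasmids, read here as plasmids for SIRT5 without and with the amino acid change in its name. SIRT5 sits mainly in mitochondria and strips malonyl, succinyl and glutaryl groups off lysines. What the Control cells received is not given in the sources used here, so a response to SIRT5 and a response to transfection cannot be told apart in a comparison with Control. The age of the mice, the plasmids' promoter and the time after transfection are not given either. Nothing states that libraries of a group came from separate mice or cultures, and the p-values therefore measure only the spread between these libraries, which may be technical.

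Complex III passes electrons from ubiquinol to cytochrome c, and complex IV passes them on to oxygen. Both move protons across the inner mitochondrial membrane, and ATP synthase makes ATP as the protons flow back. These complexes mix subunits from mitochondrial DNA (cytochrome b, COX1 to COX3, ATP6, ATP8) with the nuclear subunits followed here, most of which are small proteins with short mRNAs. Cartilage has little oxygen, and chondrocytes are known for drawing much of their ATP from glycolysis.

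Several features of the libraries bear on the values below. Total counts were 15095357 to 24242139 per library. The defining markers of chondrocytes were detected, 12 of 12, but their summed level ran from 9230 to 11593 CPM (counts scaled to a common library total) in Control, from 2851 to 2967 in WT and from 2322 to 2567 in SIRT5F101L. Osteoblast markers, 4 of 4 detected, ran from 14.8 to 22.3 CPM, from 1.16 to 2.05 and from 1.13 to 1.88 in the same order of groups. Fibroblast markers, 6 of 6, ran from 29646 to 35560, from 9659 to 11072 and from 9312 to 10699.8 CPM, and macrophage and leukocyte markers, 7 of 8 detected with Itgam at 0, from 169 to 202, from 84.1 to 96.2 and from 83.8 to 108. Adipocyte markers, 1 of 4 of which passed the filter, did not fall, at 23.6 to 26.5, 29.6 to 34.9 and 24.7 to 37.9 CPM. On the second principal component, which held 5.66% of the variance, SIRT5F101L replicate 1 (20.34) lay beside WT replicate 4 (20.1), and the other 3 SIRT5F101L libraries lay between -23.5 and -17.0. All 37 mitochondrial gene IDs and all 2414 X-linked IDs are listed at 0 in every library, so mt-Cytb, mt-Co1, mt-Co2, mt-Co3, mt-Atp6, mt-Atp8 and the X-linked Cox7b have no values. Sirt5 itself had 1 to 19 counts per library, at 0.688 ± 0.169 CPM in Control, 0.384 ± 0.229 in WT and 0.721 ± 0.346 in SIRT5F101L (SD, n = 4), and was called in no comparison (edgeR adjusted p from 0.143 to 0.954). Its counts therefore do not show SIRT5 from a plasmid in the libraries labelled with one.

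Per kilobase of transcript, the scale on which genes can be compared with each other, the Control levels of the subunits covered a wide range. The highest were 2 small complex IV subunits, Cox6a1 at 712 CPM per kilobase and Cox8a at 542, with either of 2 other transcript lengths as well. Within complex III the order depended on the transcript taken. With the median coding transcript, the level per kilobase ran from 68.5 for Uqcrfs1, the Rieske iron-sulfur subunit, to 442 for Uqcrq, a small subunit near cytochrome b. Uqcrq stood at 147 with the longest transcript, where Uqcr10 was the highest at 228, and at 232 with the principal one, where Uqcrh was the highest at 299. Uqcrc2 was the lowest with both of these, at 47.2 CPM per kilobase. Cycs, which encodes cytochrome c, stood at 18.7. In ATP synthase, the catalytic beta subunit Atp5b led with 441 CPM per kilobase, beside 250.4 for the alpha subunit Atp5a1. The lowest levels belonged to Cox7a1 (3.50), the heart and skeletal muscle form of subunit VIIa, and to Atp5o (0.678), whose product joins the F1 head to the peripheral stalk.

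The value of Atp5o is uncertain. Its ID held 2 to 15 counts per library, a second ID with the same symbol held 0 to 3, other genes overlapped 47.9% of its exon sequence, and 92.0% of its coding transcript had copies at 95% identity elsewhere. Among the other members, such copies covered 86.8% of the transcript of Atp5l, 71.3% of Atp5h, 64.6% of Atp5f1, 62.8% of Uqcrb and 56.6% of Atp5k. For Cycs, 35.0% was copied, in 51 genes. How the counting treated reads from copied sequence is not given in the sources used here.

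**Figure D1:**
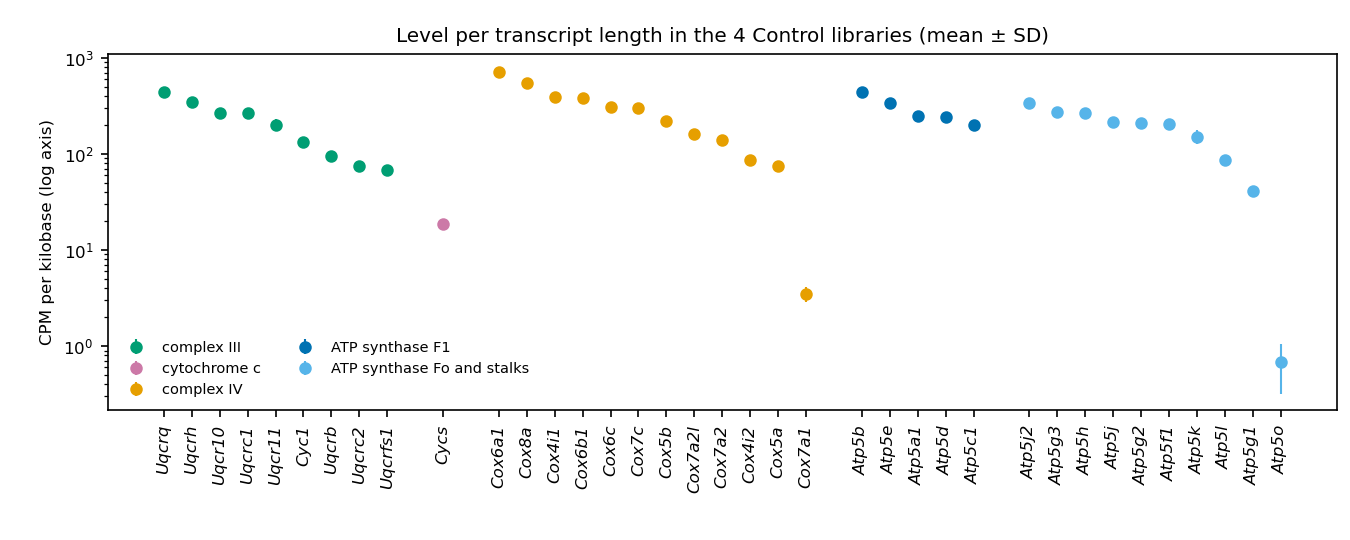
Mean Control level of each of the 37 genes in CPM per kilobase of its median coding transcript (log axis), with the SD over 4 libraries. Genes are grouped by complex and ordered by level, from Cox6a1 at the top of complex IV to Atp5o, the lowest of ATP synthase.

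The first comparison asked what differed after transfection of the WT plasmid. Cytochrome c, the complex III subunits Uqcrc1, Uqcrfs1 and Cyc1, the complex IV subunits Cox5a and Cox7a1, and the ATP synthase subunits Atp5a1 and Atp5b rose against Control. The subunits Uqcrq, Cox4i2, Cox6a1, Cox7a2l, Atp5e, Atp5g1, Atp5g2 and Atp5h fell. That is 8 higher and 8 lower of 37 (edgeR quasi-likelihood test, adjusted p under 0.05), or 43.2%, beside 56.8% of all genes tested. In bulk RNA, fewer cells of a type and less RNA per cell cannot be told apart. The median log2 fold change of the members was -0.15, against -0.01 over all genes. Groups did not overlap for 8 higher and 11 lower members, against 53.5% of all genes in either direction. By complex, complex III with cytochrome c had 4 higher and 1 lower of 10, complex IV 2 higher and 3 lower of 12, and ATP synthase 2 higher and 4 lower of 15.

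The SIRT5F101L plasmid was compared with the same Control libraries, so the values of the plasmid groups against Control are not independent of each other. Here 3 members rose (Cycs, Uqcrc1 and Atp5b) and 22 fell, or 67.6% of 37, beside 60.7% of all genes (30.0% higher and 30.7% lower). The median log2 fold change was -0.37, against -0.02 over all genes. Complex III with cytochrome c had 2 higher and 5 lower of 10, complex IV 0 higher and 8 lower of 12, and ATP synthase 1 higher and 9 lower of 15. The genes that fell were Uqcrb, Uqcrq, Uqcrh, Uqcr10 and Uqcr11 of complex III, Cox4i1, Cox4i2, Cox5b, Cox6a1, Cox6b1, Cox6c, Cox7a2l and Cox7c of complex IV, and Atp5e, Atp5f1, Atp5g1, Atp5g2, Atp5g3, Atp5h, Atp5j2, Atp5k and Atp5l of ATP synthase. Of the 10 Fo and stalk genes, 8 fell and none rose, and of the 5 genes of the catalytic F1 head, Atp5e fell and Atp5b rose. Groups did not overlap for 3 higher and 7 lower members, against 51.3% of all genes.

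**Figure D2:**
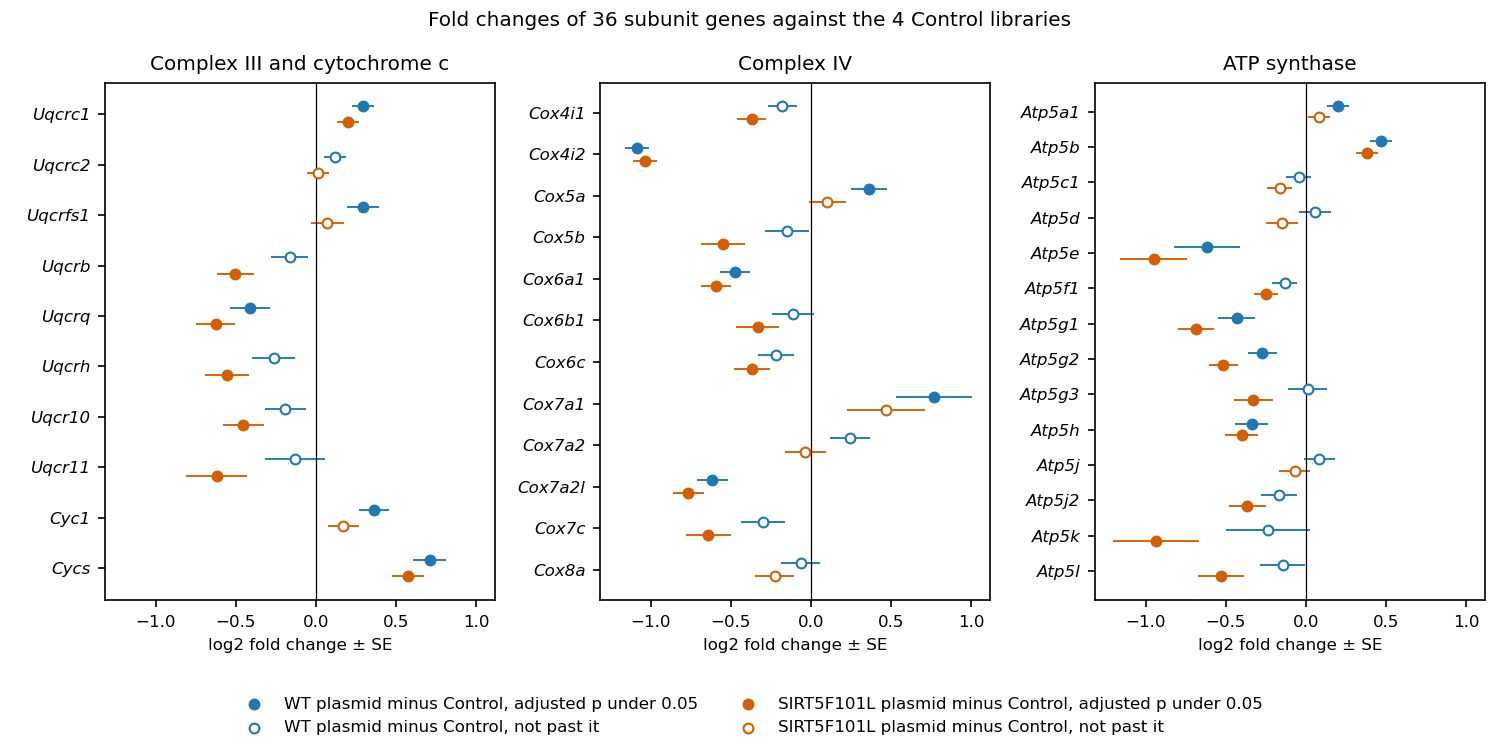
Log2 fold change against the 4 Control libraries, with its standard error, for WT (blue) and SIRT5F101L (orange). Filled points have an edgeR adjusted p under 0.05. Atp5o is left out for its low counts. SIRT5F101L points lie left of the WT points for all genes drawn except Cox4i2, and only Cycs, Uqcrc1 and Atp5b have filled points right of 0 in both comparisons.

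Transcript length moved with these results. The median length of the 37 genes was 645 nt, with 28 of them under 1000 nt, against a median of 2063.5 nt over the 14080 tested genes with a length. How steeply log2 CPM rose with log2 transcript length was fitted in each library, and this slope was 0.247 to 0.268 in Control, 0.276 to 0.346 in WT, 0.371 to 0.390 in SIRT5F101L replicates 2 to 4 and 0.256 in replicate 1. Over all genes of 500 to 1000 nt, the median log2 fold change of SIRT5F101L against Control was -0.18, and over the 21 members of that length it was -0.37. Below 500 nt these medians were -0.17 and -0.56 (7 members). At 1000 to 2000 nt they were -0.10 and -0.07 (6 members), and at 2000 to 4000 nt 0.04 and 0.08 (3 members). Across the 37 members, the log2 fold change against Control had a Pearson correlation with log2 length of 0.30 for WT and 0.44 for SIRT5F101L. It was 0.17 and 0.24 with the longest transcript, and 0.34 and 0.49 with the principal one. These are a description over genes that share the same libraries. With the slope as a covariate, SIRT5F101L against Control gave 11 higher and 5 lower members (47.6% of all genes called), and WT against Control 16 higher and 7 lower (56.7%). Of the 22 members that fell in SIRT5F101L, 17 lost the call with this covariate, 6 of them with a change of sign, and Cox4i2, Cox6a1, Cox7a2l, Atp5g1 and Atp5g2 kept it. Of the 16 members called for WT, 5 became over 1.5 times smaller, 1 of which lost the call, and 3 over 1.5 times larger. The covariate also gained calls, all of them higher: Uqcrfs1, Cyc1, Cox5a, Cox7a1, Cox7a2, Atp5a1, Atp5d and Atp5j for SIRT5F101L, and Uqcrc2, Uqcr11, Cox6b1, Cox7a2, Atp5d, Atp5g3, Atp5j and Atp5k for WT. With each library's length trend removed as an offset instead, the counts were 4 higher and 22 lower (60.1%), and 9 higher and 10 lower (57.7%). The slope covariate was a single value per library, the same for every gene. It took no account of a gene's own length, whereas the offset did. Of the SIRT5F101L libraries only replicate 1 had a slope in the Control range, so slope and group cannot be told apart well in that comparison. What sets the slope was not tested.

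Cytochrome c rose in both plasmid groups. Cycs was counted at 57.8, 61.9, 60.9 and 53.2 CPM in the 4 Control libraries, 92.2, 97.5, 86.7 and 106 in WT and 107, 90.5, 82.5 and 68.1 in SIRT5F101L. Every plasmid library was above every Control library, and SIRT5F101L replicate 1 was the highest of all 12. Against Control, the log2 fold change was 0.71 (SE 0.10, adjusted p = 6.34e-06) for WT and 0.57 (SE 0.10, adjusted p = 6.94e-05) for SIRT5F101L by edgeR. The SIRT5F101L value ran from 0.32, with replicate 1 left out and the length trend as an offset, to 0.88 with the slope covariate, and was called in both. The mean level in WT was thus 1.64 times that in Control.

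In complex III, Uqcrc1 rose in both plasmid groups and Cyc1 in WT. Uqcrc1 encodes core protein 1, of the matrix-facing part of the complex, and had 145, 142, 153 and 130.0 CPM in Control, 165, 179, 177 and 179.5 in WT and 180.0, 171, 160.2 and 145 in SIRT5F101L. All WT libraries lay above Control, and the SIRT5F101L libraries overlapped it. The log2 fold change of Uqcrc1 was 0.29 (SE 0.07, adjusted p = 0.00114) for WT and 0.20 (SE 0.07, adjusted p = 0.0162) for SIRT5F101L by edgeR; without Control replicate 4 the second became 0.16 (adjusted p = 0.0708), and with the slope covariate 0.36. Cyc1, the heme-bearing cytochrome c1, had 100.3, 105, 88.4 and 88.3 CPM in Control, 113, 129.6, 115 and 133 in WT and 131, 89.02, 105 and 104 in SIRT5F101L, with a log2 fold change of 0.36 (SE 0.09, adjusted p = 0.00289) for WT by edgeR. SIRT5F101L libraries overlapped both other groups for Cyc1 and did not pass the test (0.17, adjusted p = 0.125). They passed with the slope covariate (0.45, adjusted p = 2.84e-05), with the length offset (0.27, adjusted p = 0.00445), with that offset and replicate 1 left out (0.20, adjusted p = 0.0102) and without replicate 2 (0.25, adjusted p = 0.0244). Core protein 2, Uqcrc2, showed no difference past the threshold in either comparison, at 89.5 ± 3.90 CPM in Control, 97.1 ± 9.30 in WT and 90.4 ± 4.09 in SIRT5F101L (SD, n = 4). In WT it was called higher with the slope covariate (0.18, adjusted p = 0.0101), with the length offset (0.15, adjusted p = 0.0403) and with that offset and SIRT5F101L replicate 1 left out (0.16, adjusted p = 0.0191), against 0.12 (adjusted p = 0.144) by the test above.

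Among the small subunits of complex III, Uqcrq had the lowest fold change of WT. It was counted at 232, 217, 235 and 207 CPM in Control, 139.9, 187, 161 and 182 in WT and 199, 126, 134 and 118 in SIRT5F101L. All 8 plasmid libraries lay below Control, with log2 fold changes of -0.41 (SE 0.12, adjusted p = 0.00754) for WT and -0.63 (SE 0.12, adjusted p = 0.0002) for SIRT5F101L by edgeR. Uqcr11, the smallest subunit of the complex, had 99.4, 74.6, 102 and 83.9 CPM in Control, 66.1, 95.6, 80.2 and 86.7 in WT and 96.02, 38.5, 51.9 and 47.3 in SIRT5F101L. Replicates 2 to 4 of SIRT5F101L were below the other 9 libraries, and replicate 1 was among the highest. Its log2 fold change for SIRT5F101L was -0.62 (SE 0.19, adjusted p = 0.00859) by edgeR, but -0.62 with an adjusted p of 0.0684 under a robust prior and 0.04 (adjusted p = 0.798) with the length slope as a covariate. Without replicate 1 it was -0.96. Uqcrb, a small subunit on the matrix side, likewise had replicates 2 to 4 of SIRT5F101L as its 3 lowest libraries, with 48.8, 49.9, 57.1 and 48.2 CPM in Control, 42.2, 46.2, 47.4 and 46.3 in WT and 49.1, 31.1, 34.3 and 29.4 in SIRT5F101L. For Uqcrb the log2 fold change of SIRT5F101L was -0.50 (SE 0.12, adjusted p = 0.00101) by edgeR. The slope covariate ended the calls of SIRT5F101L for Uqcrb (-0.10, adjusted p = 0.388) and Uqcrq (-0.16, adjusted p = 0.0603), and gave -0.16 for Uqcrq in WT (adjusted p = 0.0113).

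Cox4i2 had the lowest fold change of all 37 genes in both comparisons with all 12 libraries. Without SIRT5F101L replicate 1, Atp5k (-1.49) and Atp5e (-1.30) lay below it (-1.11) in SIRT5F101L against Control. It encodes the alternative form of subunit IV, which is known from lung and from cells at low oxygen, where it takes the place of the common form Cox4i1. Cox4i2 stood at 63.6, 64.99, 62.2 and 61.8 CPM in Control, 28.03, 30.02, 28.6 and 32.3 in WT and 35.3, 28.98, 29.04 and 29.8 in SIRT5F101L. The groups were far apart, with the highest plasmid library at 35.3 CPM and the lowest Control library at 61.8. Its log2 fold change was -1.09 (SE 0.08, adjusted p = 1.62e-10) for WT and -1.04 (SE 0.08, adjusted p = 2.95e-10) for SIRT5F101L by edgeR, a level of 0.471 and 0.487 times Control. The common form, Cox4i1, had 310.2, 286, 312 and 266 CPM in Control, 234, 267, 262 and 274 in WT and 282, 199, 219 and 208 in SIRT5F101L. It was not called for WT (-0.18, adjusted p = 0.0949), although it was with upper-quartile scaling (-0.23, adjusted p = 0.0299), with no filter beyond 1 count and with the 8 libraries compared, and fell by 0.37 on the log2 scale in SIRT5F101L (SE 0.09, adjusted p = 0.00132), a call that the slope covariate ended (-0.07, adjusted p = 0.451). There were 21.6 ± 1.62 Cox4i2 counts per 100 counts of Cox4i1 in Control, 11.5 ± 0.484 in WT and 13.7 ± 0.937 in SIRT5F101L (SD, n = 4), with no overlap between groups.

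The subunit VIIa family also shifted unequally. Cox7a2l encodes SCAF1, a relative of subunit VIIa that ties complexes III and IV into supercomplexes. Cox7a2l had 185, 166, 189.9 and 169.7 CPM in Control, 103, 114, 112 and 134 in WT and 130.0, 103, 96.1 and 89.3 in SIRT5F101L. Every plasmid library was below every Control library, and the log2 fold change was -0.62 (SE 0.10, adjusted p = 1.77e-05) for WT and -0.76 (SE 0.10, adjusted p = 1.11e-06) for SIRT5F101L by edgeR, the second becoming -0.44 with the slope covariate, still called. The widely expressed form, Cox7a2, had 98.8, 93.2, 93.05 and 85.4 CPM in Control, 92.4, 118, 102 and 127 in WT and 125, 74.1, 84.7 and 77.5 in SIRT5F101L, and was not called in either comparison (adjusted p = 0.104 and 0.8288). Its calls went both ways under alternatives. With the slope covariate it was higher in both groups (0.50, adjusted p = 6.21e-09, and 0.44, adjusted p = 6.91e-06), and without SIRT5F101L replicate 1 it was lower in SIRT5F101L (-0.23, adjusted p = 0.0135). In WT it was also called higher in 5 other alternatives, with values from 0.25 to 0.32. Per 100 counts of Cox7a2 there were 192 ± 11.7 counts of Cox7a2l in Control, 106 ± 6.49 in WT and 118 ± 14.8 in SIRT5F101L. The muscle form, Cox7a1, was rare, with 1.68, 1.17, 1.49 and 1.80 CPM in Control, 1.97, 2.63, 2.83 and 3.03 in WT and 2.83, 1.82, 2.01 and 1.81 in SIRT5F101L. It rose in WT with a log2 fold change of 0.77 (SE 0.24, adjusted p = 0.0098) by edgeR. Skeletal muscle markers, 2 of 6 of which passed the filter, had a summed level of 9.18 to 9.64 CPM in Control, 2.37 to 3.86 in WT and 2.27 to 3.26 in SIRT5F101L.

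Of the other complex IV subunits, Cox6a1 fell in both groups, Cox5b fell in SIRT5F101L and Cox5a rose in WT. Cox6a1, the common form of the regulatory subunit VIa, had 419.6, 399, 425 and 384 CPM in Control, 285, 311, 284 and 291 in WT and 336, 283, 234 and 225 in SIRT5F101L. No plasmid library reached the lowest Control library, and the log2 fold change was -0.47 (SE 0.09, adjusted p = 0.000208) for WT and -0.59 (SE 0.09, adjusted p = 1.55e-05) for SIRT5F101L by edgeR, the second becoming -0.32 with the slope covariate, still called. Cox5b, a zinc-binding subunit, had 140.0, 130.4, 147 and 137 CPM in Control, 109.7, 141, 121 and 127 in WT and 139, 84.8, 82.1 and 72.1 in SIRT5F101L. Again replicate 1 of SIRT5F101L lay within Control and replicates 2 to 4 below it, with a log2 fold change of -0.55 (SE 0.14, adjusted p = 0.00182) by edgeR that became -0.05 (adjusted p = 0.632) with the slope covariate. Cox5a, which is near Cox5b in the assembled enzyme, had 48.3, 48.3, 52.3 and 44.6 CPM in Control, 56.7, 65.8, 63.8 and 62.8 in WT and 70.9, 45.2, 47.01 and 44.6 in SIRT5F101L. All 4 WT libraries were above Control (log2 fold change 0.36 (SE 0.11, adjusted p = 0.0102) by edgeR, and 0.58 with the slope covariate), whereas only replicate 1 of SIRT5F101L was. Cox8a, the second most abundant subunit per kilobase, passed the test in neither comparison, at 298 ± 13.9 CPM in Control, 285 ± 22.9 in WT and 255 ± 69.9 in SIRT5F101L (SD, n = 4). Its SIRT5F101L value of -0.23 (adjusted p = 0.119) became -0.42 (adjusted p = 2.02e-05) without replicate 1, and was also called with no filter beyond 1 count (adjusted p = 0.00328) and with replicate 1 left out and the length offset (-0.29, adjusted p = 0.00108).

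In ATP synthase, Atp5b rose in both plasmid groups and Atp5a1 in WT. Atp5b, the beta subunit that forms ATP, had 879, 828, 903 and 769.7 CPM in Control, 1109, 1167, 1158 and 1234 in WT and 1222, 1112, 1058 and 1002 in SIRT5F101L. All plasmid libraries were above all Control libraries, with log2 fold changes of 0.47 (SE 0.07, adjusted p = 8.2e-06) and 0.38 (SE 0.07, adjusted p = 8.3e-05) by edgeR. Its partner Atp5a1 had 655, 644, 679 and 599 CPM in Control, 696, 734, 736 and 792 in WT and 781, 636, 664 and 645 in SIRT5F101L. Atp5a1 rose in WT by 0.20 (SE 0.07, edgeR adjusted p = 0.0188), and this call was lost without Control replicate 4 (0.16, adjusted p = 0.0709), without WT replicate 4 (0.17, adjusted p = 0.066), with upper-quartile scaling (0.15, adjusted p = 0.063) and with the length trend as an offset (0.16, adjusted p = 0.0678). The slope covariate moved it the other way, to 0.31. There were 131 ± 2.93 Atp5b counts per 100 of Atp5a1 in Control, 158 ± 1.65 in WT and 161 ± 9.04 in SIRT5F101L (SD, n = 4), with Control apart from both plasmid groups.

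The smallest F1 subunit fell in both groups. Atp5e, the epsilon subunit of the central stalk, had 159, 156, 141 and 121 CPM in Control, 74.7, 117, 74.5 and 110.1 in WT and 123, 50.9, 70.99 and 52.8 in SIRT5F101L. WT libraries were all below Control, and replicate 1 of SIRT5F101L overlapped it. The log2 fold change was -0.62 (SE 0.21, adjusted p = 0.0149) for WT and -0.95 (SE 0.21, adjusted p = 0.00053) for SIRT5F101L by edgeR. The WT call of Atp5e did not hold without WT replicate 1 (-0.52, adjusted p = 0.0513), without WT replicate 3 (-0.52, adjusted p = 0.0574), with a robust prior (adjusted p = 0.0971) or with DESeq2 (-0.61, adjusted p = 0.0593). With the slope covariate the WT value was -0.22 (adjusted p = 0.0407), and the SIRT5F101L call did not hold with the slope covariate (-0.22, adjusted p = 0.111).

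The proton-carrying c ring is built from identical proteins made by 3 genes, which differ in the presequence that is cut off on import. Atp5g1 had 108, 112, 111 and 113 CPM in Control, 70.9, 83.96, 79.2 and 95.004 in WT and 93.7, 62.5, 61.1 and 58.4 in SIRT5F101L, without overlap between Control and the plasmid groups. Its log2 fold change was -0.43 (SE 0.11, adjusted p = 0.00315) for WT and -0.69 (SE 0.12, adjusted p = 3.49e-05) for SIRT5F101L by edgeR. With the slope covariate these became -0.20 and -0.26, still called. Atp5g2 had 150.1, 141, 141 and 142 CPM in Control, 112, 123, 109 and 131 in WT and 126, 89.8, 93.5 and 91.6 in SIRT5F101L. It too was below Control in all 8 plasmid libraries, with -0.27 (SE 0.09, adjusted p = 0.0139) and -0.52 (SE 0.09, adjusted p = 5.39e-05) by edgeR, although the WT call was lost without WT replicate 3 (-0.23, adjusted p = 0.0546) and with the slope covariate (-0.11, adjusted p = 0.0881). For SIRT5F101L that covariate gave -0.22, still called. Atp5g3, the most abundant of the 3 genes in CPM, had 213, 191, 209.6 and 179.8 CPM in Control, 176, 215, 197 and 212 in WT and 216, 117, 147 and 151 in SIRT5F101L. Atp5g3 was not called for WT (0.01, adjusted p = 0.955) except with the slope covariate (0.24, adjusted p = 0.00354), and its SIRT5F101L call (log2 fold change -0.33 (SE 0.12, adjusted p = 0.0272) by edgeR) was lost on leaving out Control replicate 1 or 3 (adjusted p = 0.0746 and 0.0675) or SIRT5F101L replicate 2, 3 or 4 (adjusted p = 0.113, 0.0733 and 0.0599). The call was also lost with a robust prior (adjusted p = 0.0891) and with the 8 libraries compared (adjusted p = 0.0527). With the slope covariate the value was 0.09 (adjusted p = 0.418), and without SIRT5F101L replicate 1 it was -0.52. Per 100 counts of Atp5g3 there were 56.3 ± 5.42 of Atp5g1 in Control, 41.1 ± 2.53 in WT and 44.3 ± 6.46 in SIRT5F101L.

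Atp5k had the largest standard error of the called members. It encodes subunit e, a small membrane subunit at the interface where ATP synthase pairs into dimers. Atp5k had 56.6, 39.8, 54.8 and 43.6 CPM in Control, 29.8, 49.3, 41.9 and 44.3 in WT and 49.9, 12.5, 20.1 and 18.8 in SIRT5F101L. Replicates 2 to 4 of SIRT5F101L were below all other libraries, whereas replicate 1 lay inside the Control range. The log2 fold change for SIRT5F101L was -0.94 (SE 0.27, adjusted p = 0.00519) by edgeR, with an adjusted p of 0.0563 under a robust prior and a value of -0.06 (adjusted p = 0.78) with the slope covariate. Without replicate 1 it was -1.49 (adjusted p = 1.16e-10). Its median coding transcript, of 321.5 nt, is the shortest of the 37. Atp5l, which encodes subunit g beside it in the dimer interface, had 46.1, 28.9, 29.6 and 26.7 CPM in SIRT5F101L and a mean of 47.4 ± 3.97 in Control (SD, n = 4).

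**Figure D3:**
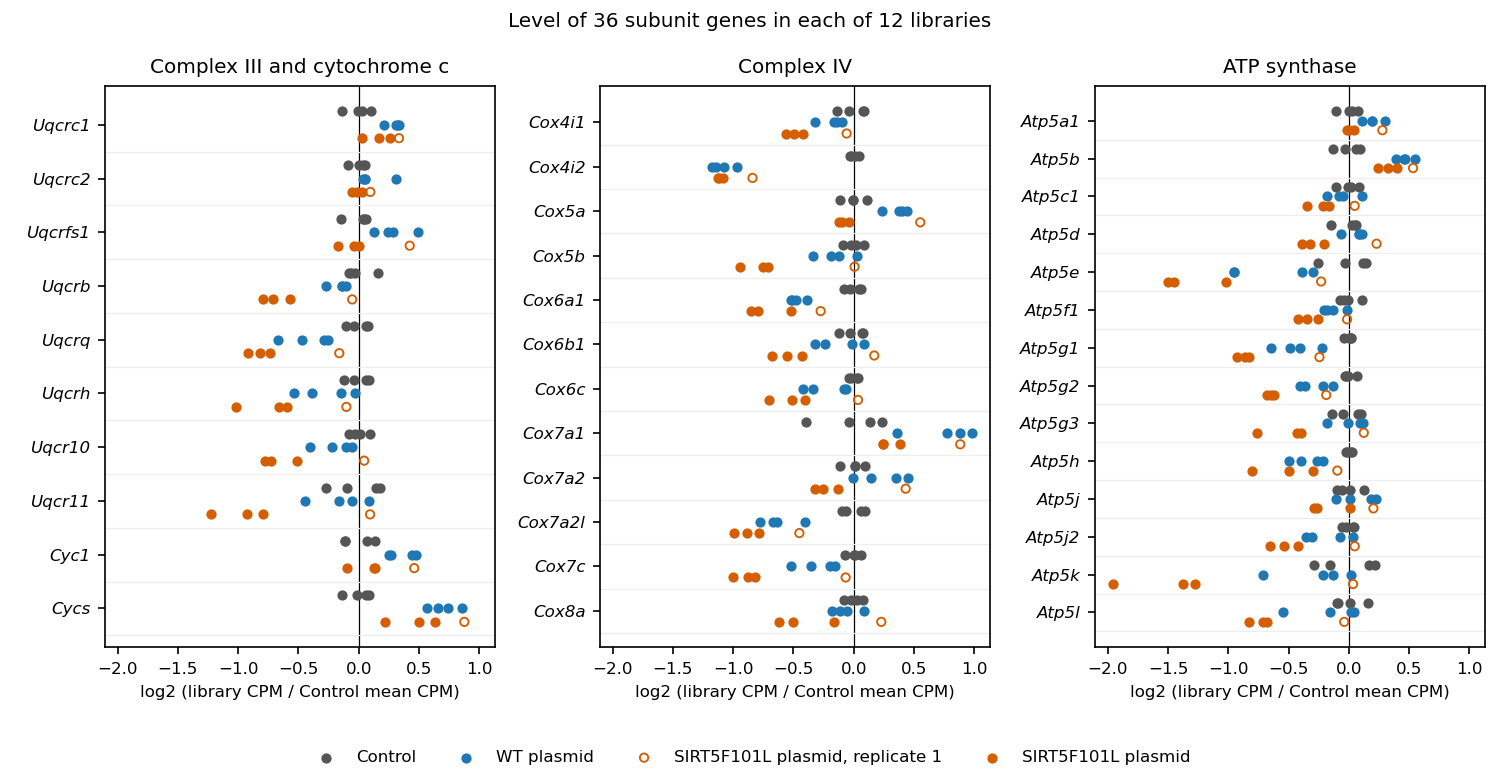
Level of each gene in each library, as log2 of its CPM over the Control mean, for Control (grey), WT (blue) and SIRT5F101L (orange, with replicate 1 as an open circle). Atp5o is left out for its low counts. The open circle is the highest of the 4 SIRT5F101L points in every row, and replicates 2 to 4 often lie below all other points.

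The plasmid groups, which by their labels differ in the amino acid change in SIRT5, were compared directly. No member was called by edgeR or by DESeq2, beside 0.0421% and 0.309% of all genes. With no filter beyond 1 count and the same 12 libraries, edgeR called 13 members lower, beside 0.921% of all genes. Of the 37 members, 35 had a lower mean estimate in SIRT5F101L than in WT, beside 7127 of 14253 genes in all, and the median log2 fold change was -0.21, against 0.00 over all genes. The unadjusted p was under 0.05 for 14 members, beside 11.9% of all genes. No member separated the groups without overlap, which 4.02% of all genes did. The 3 members with the lowest p were Cox5b, with a log2 fold change of -0.40 (SE 0.14, adjusted p = 0.36), Atp5g3, with -0.34 (SE 0.12, adjusted p = 0.363), and Uqcrb, with -0.34 (SE 0.12, adjusted p = 0.36), by edgeR.

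The count of members called also depended on SIRT5F101L replicate 1. This library was the highest of the 4 SIRT5F101L libraries for 37 of 37 members, against 34.1% of all genes tested. Replicates 2 to 4 were all below the 4 WT libraries for 26 members, against 13.2% of all genes, and all below the 4 Control libraries for 26 members, against 31.9%. The summed level of the 37 genes was 7141 CPM in replicate 1 and 5358, 5367 and 4998 CPM in replicates 2 to 4, beside 5894 to 6944 in WT and 6074 to 6790 in Control. Replicate 1 had the highest sum of all 12 libraries, and replicates 2 to 4 had the 3 lowest. Without replicate 1, 30 members were called lower and 0 higher than in WT by edgeR, or 81.1%, beside 15.2% of all genes (8.58% lower), with a median log2 fold change of -0.36.

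As SIRT5F101L replicate 1 was the highest of its group for every member, leaving it out lowers every value. The p-values without it therefore depend on that choice and are given as a description. Without that library, the lowest value was that of Atp5k, -1.25 (SE 0.14, adjusted p = 8.58e-07) by edgeR. Uqcr11 followed with -0.83 (SE 0.11, adjusted p = 3.42e-06), Atp5e with -0.68 (SE 0.12, adjusted p = 0.000358) and Cox5b with -0.65 (SE 0.07, adjusted p = 6.3e-07). Cycs was called too, at -0.25 (SE 0.08, adjusted p = 0.028), with replicate 2 (90.5 CPM) above the lowest WT library (86.7 CPM). The genes not called included Cox4i2, at -0.02 (SE 0.07, adjusted p = 0.89), Uqcrc1, at -0.14 (SE 0.06, adjusted p = 0.143), and Atp5b, at -0.14 (SE 0.06, adjusted p = 0.128). Against Control, leaving out replicate 1 gave 3 higher and 27 lower members, beside 63.2% of all genes called.

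Length also moved with the difference between the plasmid groups. Across the 37 members the log2 fold change of SIRT5F101L against WT had a Pearson correlation with log2 length of 0.42. It was 0.21 with the longest transcript and 0.47 with the principal one, given as a description. Over all tested genes of 500 to 1000 nt, the median without replicate 1 was -0.10, and over the 21 members of that length it was -0.36. With replicate 1 left out and the length trend as an offset, 25 members were called lower, beside 11.3% of all genes (6.9% lower), with a median of -0.28. With all 12 libraries and the slope as a covariate no member was called, beside 0.182% of all genes, and the median was -0.04. As replicate 1 and replicates 2 to 4 of SIRT5F101L differ in slope, the slope and the place of replicate 1 cannot be told apart here.

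**Figure D4:**
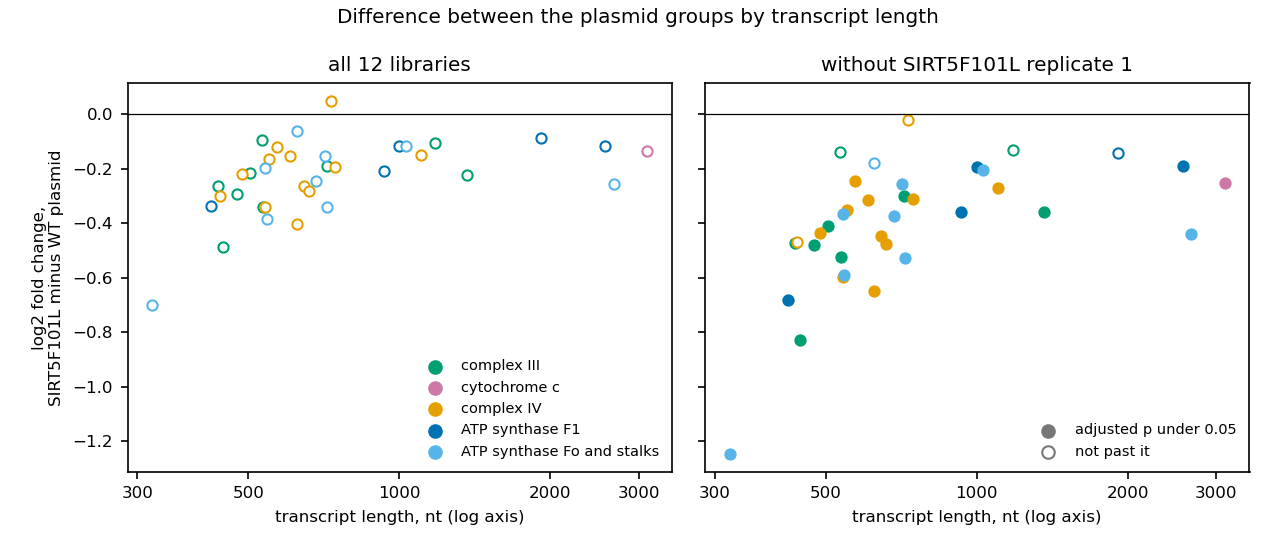
Log2 fold change of SIRT5F101L against WT (vertical axis) by median coding transcript length in nt (log axis), for 36 genes without Atp5o, coloured by complex, with all 12 libraries (left) and without SIRT5F101L replicate 1 (right). Filled points have an edgeR adjusted p under 0.05. No point is filled on the left; on the right Atp5k, the shortest, lies lowest at -1.25.

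Promoters of the members were searched for 3 motifs that are known from promoters of respiratory genes. Windows of 300 bases, from 250 before to 50 after the start, were read from RefSeq (GRCm38.p6) and matched 29 of the 37 genes, with 32 windows. The letters CCGGAAG, a core that ETS factors such as GABP bind, were found on either strand in 10 of the 32 windows (31.2%), beside 8.86% of all 32851 windows. The palindromic motif of nuclear respiratory factor 1 (NRF1), searched as a perfect palindrome and given here by its name, was in 4 windows (12.5%, beside 0.971%), those of Uqcrc1, Cox6a1, Atp5g2 and Atp5k. AAGATGGC, the core for YY1, was in 3 windows (9.38%, beside 2.75%), those of Atp5f1, Atp5j and Atp5j2. A match is a run of letters and was not tested as a binding site. The ETS letters were in windows of Uqcrh, Uqcr11, Cox6a1, Cox6b1, Cox8a, Atp5e, Atp5h, Atp5j, Atp5k and Atp5l, of which all but Cox8a and Atp5j fell in SIRT5F101L against Control, as did 22 of the 37 members and 30.7% of all genes. Of these 8 genes, 7 lost the call with the slope covariate, and Cox6a1 kept it.

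The 200 bases before the start are printed for 4 genes, 2 that fell in SIRT5F101L against Control and 2 that rose in both plasmid groups, with the ETS match in capitals and all other bases, the NRF1 matches included, in lower case. Cox6a1 (chr5:115348959-115349158, minus strand) holds the NRF1 motif 162 bases before its start and the ETS letters, here as their reverse complement, 16 bases before it. Atp5k (chr5:108434400-108434599, minus strand) holds the NRF1 motif 50 bases before its start, and its ETS letters lie 12 bases after it, outside the stretch. Cycs (chr6:50566570-50566769, minus strand) and Atp5b (chr10:128083107-128083306, plus strand) hold no exact match of the 3 in their windows. Near matches were not searched for. These 4 genes do not stand for the rest. Uqcrc1 also rose in both plasmid groups and holds the NRF1 motif, and Cox5b, Cox7a2l and Atp5g1 fell in SIRT5F101L and hold none of the 3.
Cox6a1: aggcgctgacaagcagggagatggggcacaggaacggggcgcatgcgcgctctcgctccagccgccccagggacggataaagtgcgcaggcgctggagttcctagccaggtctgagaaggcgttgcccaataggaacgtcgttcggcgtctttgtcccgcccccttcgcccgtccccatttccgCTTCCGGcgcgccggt
Atp5k: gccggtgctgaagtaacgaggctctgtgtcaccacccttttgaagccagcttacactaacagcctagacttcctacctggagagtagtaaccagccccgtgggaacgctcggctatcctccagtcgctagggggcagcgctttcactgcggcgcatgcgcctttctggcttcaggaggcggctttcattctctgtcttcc
Cycs: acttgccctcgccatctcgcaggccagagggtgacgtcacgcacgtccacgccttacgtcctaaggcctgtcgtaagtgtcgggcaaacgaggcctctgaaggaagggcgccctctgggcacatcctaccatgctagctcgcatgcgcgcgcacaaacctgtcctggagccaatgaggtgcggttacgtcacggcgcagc
Atp5b: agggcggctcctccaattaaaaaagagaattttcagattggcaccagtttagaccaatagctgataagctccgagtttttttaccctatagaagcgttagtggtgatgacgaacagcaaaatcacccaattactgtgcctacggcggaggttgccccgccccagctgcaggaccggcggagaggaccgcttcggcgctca

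Of 84 other genes of the pathway, 67 were tested. Against Control, 12 rose and 21 fell in WT, and 13 rose and 32 fell in SIRT5F101L, or 49.3% and 67.2%, beside the 56.8% and 60.7% of all genes given above. Between the plasmid groups none was called by edgeR or DESeq2. The unadjusted p was under 0.05 for 14 of the 67 by edgeR, beside 11.9% of all genes. By DESeq2 it was for 10, with no share of all genes at hand. Without SIRT5F101L replicate 1, 18 of the 67 were called lower and none higher by edgeR, beside 8.58% of all genes called lower and 15.2% called in either direction.

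Outside the 37, Ndufa4l2 fell and AA467197 rose in both plasmid groups. Ndufa4 encodes a subunit now placed in complex IV, and Ndufa4l2 encodes its hypoxia-inducible relative. Ndufa4l2 had 572, 536, 535 and 530.0 CPM in Control, 272, 278, 279 and 279 in WT and 320.5, 263, 247 and 261 in SIRT5F101L. The plasmid groups were far below Control, with log2 fold changes of -0.97 (SE 0.07, adjusted p = 2.26e-10) and -0.99 (SE 0.07, adjusted p = 1.51e-10) by edgeR, whereas Ndufa4 was not called in either comparison, at 133 ± 4.10, 132 ± 16.7 and 116 ± 25.4 CPM (SD, n = 4). Ndufa4 was called higher in both groups with the slope covariate (0.21 and 0.22) and lower in SIRT5F101L without replicate 1 (-0.35), with the length offset as well (-0.22) and with no filter beyond 1 count (-0.19). The third relative, AA467197, known in human as C15orf48 or NMES1 and as a gene of inflamed tissue, went up from a low level. AA467197 had 1.16, 1.72, 1.17 and 1.53 CPM in Control, 5.53, 6.03, 3.99 and 6.22 in WT and 4.81, 3.51, 2.53 and 2.15 in SIRT5F101L, with no overlap between Control and the plasmid groups. Its log2 fold change was 1.95 (SE 0.25, adjusted p = 1.46e-06) for WT, the highest among these genes, and 1.20 (SE 0.26, adjusted p = 0.000527) for SIRT5F101L by edgeR. Atpif1, the inhibitor that blocks ATP hydrolysis by ATP synthase, had 18.6, 16.8, 17.9 and 17.5 CPM in Control, 7.06, 11.99, 11.3 and 11.2 in WT and 12.3, 11.05, 7.82 and 8.96 in SIRT5F101L. It fell in both groups, by -0.77 (SE 0.15, adjusted p = 0.000166) and -0.83 (SE 0.15, adjusted p = 7.41e-05) on the log2 scale by edgeR, and there were 2.10 ± 0.127 Atpif1 counts per 100 of Atp5b in Control, 0.888 ± 0.175 in WT and 0.908 ± 0.123 in SIRT5F101L. With the slope covariate its SIRT5F101L value was -0.46, still called.

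**Figure D5:**
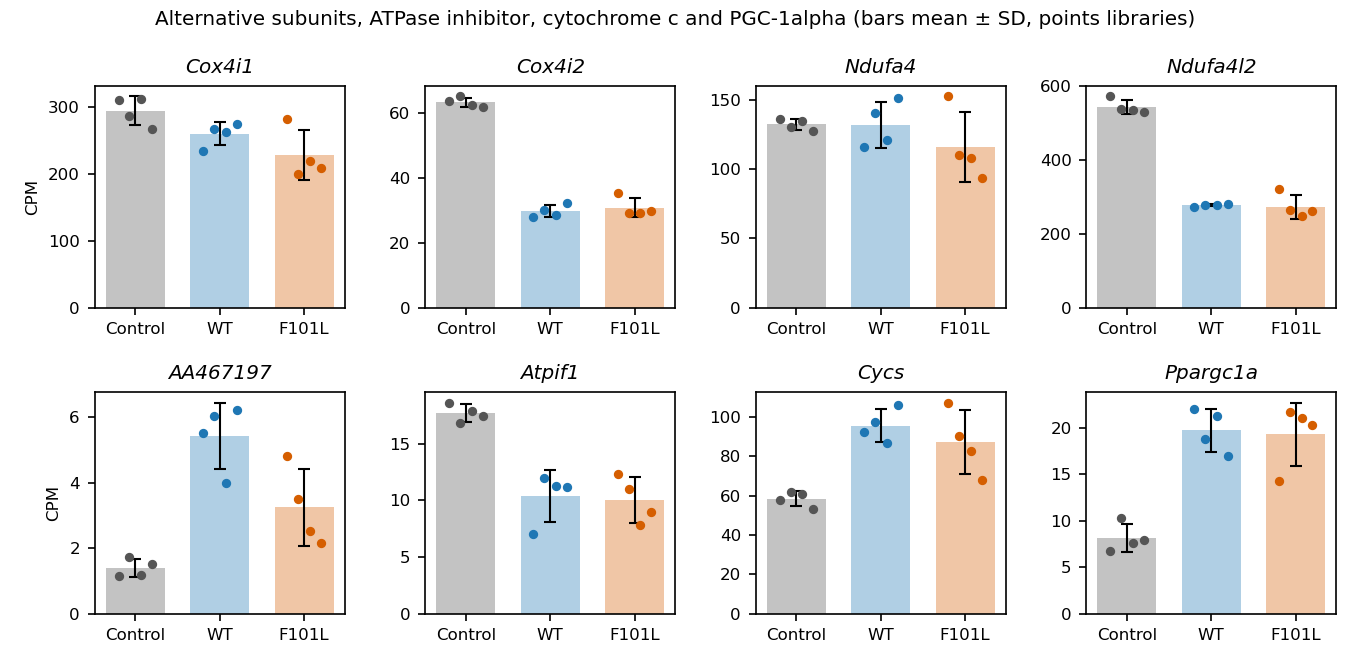
CPM of 8 genes by group, with bars for the mean, error bars for the SD and a point for each of 4 libraries. Cox4i2, Ndufa4l2 and Atpif1 are lower, and Cycs, AA467197 and Ppargc1a higher, in all 8 plasmid libraries than in all 4 Control libraries; Cox4i1 and Ndufa4 overlap.

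Assembly factors, which build the complexes without being part of them, gave 5 higher and 11 lower of 33 tested for WT and 6 higher and 16 lower for SIRT5F101L, or 48.5% and 66.7%, beside 56.8% and 60.7% of all genes. For complex IV, Lrpprc, which stabilises mitochondrial mRNAs, had 67.4, 67.6, 65.99 and 70.96 CPM in Control, 94.04, 94.9, 98.3 and 95.1 in WT and 89.5, 104, 102 and 94.6 in SIRT5F101L. Lrpprc rose in both groups without overlap, with 0.49 (SE 0.06, adjusted p = 6.96e-07) and 0.52 (SE 0.06, adjusted p = 2.87e-07) by edgeR. Coa7, a heme-binding assembly factor, rose in WT by 0.65 (SE 0.14, edgeR adjusted p = 0.000642). Cox20, a chaperone of COX2, had the lowest value for WT, -0.63, but its call was lost without Control replicate 2, 3 or 4 or WT replicate 1, 3 or 4, with adjusted p up to 0.171 over all alternatives. In SIRT5F101L Cox20 was at -0.82 (edgeR adjusted p = 0.0113), a call lost in 2 of 18 alternatives. Pet100 had 22.1, 20.2, 28.2 and 22.4 CPM in Control, 11.5, 18.9, 15.7 and 17.03 in WT and 18.7, 6.76, 9.35 and 6.80 in SIRT5F101L, where its log2 fold change was -1.15 (SE 0.23, adjusted p = 0.000236) by edgeR. In SIRT5F101L Pet100 again had replicate 1 as its highest library, and the slope covariate ended the call (-0.33, adjusted p = 0.0512). For WT the log2 fold change of Pet100 was -0.56 (edgeR adjusted p = 0.0393), a call lost in 9 of 18 alternatives.

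For complex III, Uqcc3 fell in both groups, with log2 fold changes of -0.54 (SE 0.12, adjusted p = 0.00106) and -0.85 (SE 0.13, adjusted p = 7.89e-06) by edgeR, or -0.32 and -0.46 with the slope covariate. Ttc19, which clears fragments of the Rieske subunit, rose in SIRT5F101L by 0.31 (SE 0.08, adjusted p = 0.00223 by edgeR), a call that the slope covariate ended (0.18, adjusted p = 0.149). Uqcc1 rose in WT by 0.26 (SE 0.09, edgeR adjusted p = 0.013), and without WT replicate 2 by 0.21, which was not called (adjusted p = 0.0568). In SIRT5F101L Uqcc1 rose by 0.21 (edgeR adjusted p = 0.0422), a call lost in 8 of 18 alternatives. For the F1 head of ATP synthase, Atpaf2, the alpha-subunit chaperone, rose in both groups (0.25 (SE 0.08, adjusted p = 0.00926) and 0.24 (SE 0.08, adjusted p = 0.00995) by edgeR). Atpaf1, the chaperone of the beta subunit, had 18.4 ± 2.16 CPM in Control, 15.6 ± 1.83 in WT and 15.1 ± 1.02 in SIRT5F101L (SD, n = 4). Its log2 fold change for SIRT5F101L was -0.29 (edgeR adjusted p = 0.0243), a call lost in 8 of 18 alternatives. Tmem242, another assembly factor, fell in WT by 0.24 (SE 0.10, edgeR adjusted p = 0.0441), a call lost in 9 of 18 alternatives, with -0.12 (adjusted p = 0.324) under the slope covariate. Its log2 fold change for SIRT5F101L was -0.27 (edgeR adjusted p = 0.0234), a call lost in 7 of 18 alternatives.

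Heme, which cytochromes b and c1, cytochrome c and complex IV carry, is made by enzymes of which 2 rose and 3 fell of 8 tested in WT, and 2 rose and 5 fell in SIRT5F101L, or 62.5% and 87.5%, beside 56.8% and 60.7% of all genes. Alas1, the rate-limiting first enzyme, rose from 82.7 ± 2.91 CPM in Control to 117 ± 5.85 in WT and 117 ± 2.83 in SIRT5F101L (SD, n = 4), with 0.50 (SE 0.06, adjusted p = 2.24e-07) and 0.50 (SE 0.06, adjusted p = 1.99e-07) by edgeR. Uros, a later enzyme, fell from 20.9 ± 0.471 CPM to 13.6 ± 2.18 and 12.8 ± 0.612, with -0.62 (SE 0.10, adjusted p = 3.89e-05) and -0.71 (SE 0.10, adjusted p = 7.48e-06) by edgeR. Of complex II, which feeds electrons to ubiquinone beside complex I, Sdha rose in WT by 0.21 (SE 0.06, adjusted p = 0.00617) by edgeR. In SIRT5F101L Sdha rose by 0.15 (edgeR adjusted p = 0.0449), a call lost in 6 of 18 alternatives. Sdhc, a membrane anchor, fell in both groups (-0.39 (SE 0.07, adjusted p = 0.000152) and -0.39 (SE 0.07, adjusted p = 0.000138)) by edgeR. Slc25a4, an ADP/ATP carrier that exports the ATP, fell in SIRT5F101L by 0.43 (SE 0.09, edgeR adjusted p = 0.000385), and with the slope covariate gave -0.11 (adjusted p = 0.164).

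Among 11 regulators of respiratory genes, 3 rose and 2 fell in each comparison with Control, or 45.5%, beside 56.8% and 60.7% of all genes. Ppargc1a, which encodes the coactivator PGC-1alpha, had 6.74, 10.3, 7.62 and 7.92 CPM in Control, 21.96, 18.8, 21.3 and 16.9 in WT and 14.3, 21.6, 21.02 and 20.3 in SIRT5F101L. All plasmid libraries were above all Control libraries, with log2 fold changes of 1.27 (SE 0.14, adjusted p = 2.35e-07) and 1.24 (SE 0.14, adjusted p = 3.14e-07) by edgeR, and 0.82 for SIRT5F101L with the slope covariate. Gabpb1, a subunit of the ETS factor GABP, fell in both groups, with -0.36 (SE 0.08, adjusted p = 0.00114) and -0.38 (SE 0.08, adjusted p = 0.000561) by edgeR, the second of which was lost with the slope covariate (-0.24, adjusted p = 0.0684). Nrf1 and Yy1, whose motifs were searched above, were not called in either comparison with Control, although Yy1 was lower in SIRT5F101L with the length offset (-0.26, adjusted p = 0.00188) and with replicate 1 left out as well (-0.31, adjusted p = 3.21e-05).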

How the data were processed

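The values are raw counts of reads per Ensembl gene ID, deposited by the authors as whole numbers for each library. Poly(A) RNA was taken up on beads and sequenced from both ends of each fragment, per the labels' protocols. The submitters' processing notes name FastQC 0.11.9, HISAT2 2.2.1, HTSeq 2.0.2, DESeq2 1.38.3 and the build GRCm39. Their settings, the annotation and the strand setting are not given in the sources used here.

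Groups came from the treatment label, and replicate numbers only name libraries in accession order. edgeR 4.0.16 (R 4.3.3) was run with TMM scaling, its expression filter by group (14253 genes kept), and the quasi-likelihood test with 9 residual degrees of freedom over the 12 libraries. Genes whose 2-sided p, adjusted by Benjamini-Hochberg over all tested genes, was under 0.05 are said to rise or fall or to be called. The standard error is the log2 fold change divided by the square root of F, and CPM are TMM-scaled. A single count of the deposited tables is the unit of precision, and 15095357 to 24242139 counts per library set it. The pipeline was tested on simulated counts.

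The 37 members, the pathway lists and the markers were chosen with earlier results of these data known. Members with full values are, by complex and comparison with Control, the called genes with the 2 highest and 2 lowest fold changes, the 3 isoform sets, the 3 lowest p between the plasmid groups, and the 2 highest and 2 lowest levels per kilobase. Of each other list, the called genes with the highest and lowest fold change are named, plus AA467197, Ndufa4, Atpif1, Ppargc1a and Sirt5. Other genes are named by value only or in counts.

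Alternatives were RLE and upper-quartile scaling, 2 other filters, the 8 libraries compared, a robust prior, DESeq2 1.42.0, each library of the 2 groups compared left out, and 3 settings on transcript length. These were the slope as covariate, the loess trend with span 0.5 as offset, and the offset without SIRT5F101L replicate 1. The slope is a single value per library and does not correct a gene by its own length. Levels per kilobase used the median coding transcript of GENCODE M21, with the longest transcript and, added after seeing the data, the principal transcript as alternatives. M21 is on another build than the counts, so it gave lengths, overlaps and copies (BLAST 2.17.0) but no coordinates. Promoter coordinates are those of RefSeq, GRCm38.p6.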

Additional observations from a re-analysis of the deposited data

Results flagged for a closer look

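In 141 groups of 4 libraries, the highest or lowest library was compared with the others by Dixon's ratio at the 95% critical value. This marked 13 groups, where chance alone marks about 7.05 (5% of groups), and 7 of the 13 concerned SIRT5F101L replicate 1. The slope of expression on length there was 0.256, against 0.371 to 0.390 in replicates 2 to 4. In the same library Atp5g1 was at 93.7 CPM (others 58.4 to 62.5), Atp5g2 at 126 CPM (89.8 to 93.5), Cox5a at 70.9 CPM (44.6 to 47.0), Cox4i2 at 35.3 CPM (29.0 to 29.8), Sdha at 247 CPM (216 to 220.3) and Atpaf1 at 16.6 CPM (14.4 to 14.8). All 6 genes were above the other 3 libraries there. What sets this library apart was not tested.

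WT replicate 1 was below the other WT libraries for Atpif1, at 7.06 CPM (others 11.2 to 11.99), Uqcrc1, at 165 CPM (177 to 179.5), and Uros, at 10.4 CPM (14.5 to 14.9). Coa7 was highest in Control replicate 3, at 7.88 CPM (others 7.10 to 7.20). Ndufa4l2 was highest in Control replicate 1, at 572 CPM (530.0 to 536). Sirt5 was highest in SIRT5F101L replicate 2, at 1.23 CPM (0.481 to 0.602).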

How the results depend on the processing

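No paired analysis was possible because the labels give no replicate numbers and nothing ties libraries of different groups together. The 16 members called for WT against Control became 25 with SIRT5F101L replicate 1 left out and the length offset. The split of 8 higher and 8 lower became 7 and 12 with upper-quartile scaling and 16 and 7 with the slope covariate. The share of members called was below that of all genes in the main test (43.2% beside 56.8%). It was above that of all genes with the 8 libraries compared (62.2% beside 61.3%) and with no filter beyond 1 count (62.2% beside 32.5%). It was also above with the slope covariate (62.2% beside 56.7%) and in the setting that gave 25 members (67.6%). In the other alternatives it was below. Leaving out each Control or WT library in turn gave 14 to 16 members, beside 52.1% to 54.0% of all genes. The 25 members called for SIRT5F101L against Control became 16 (11 higher, 5 lower) with the slope covariate, beside 47.6% of all genes. With each Control or SIRT5F101L library left out they became 23 to 30, beside 55.6% to 63.2%. With that covariate, the medians of the members turned from -0.15 to 0.13 and from -0.37 to 0.04, and 6 members called lower turned sign in SIRT5F101L against Control, none of them called after it, among them Atp5g3 (0.0897) and Uqcr11 (0.0394) of the genes described in full. The 0 members called between the plasmid groups became 13 with no filter beyond 1 count, 25 with replicate 1 left out and the length offset, and 0 to 30 with each WT or SIRT5F101L library left out, 30 being the value without SIRT5F101L replicate 1.

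Of 69 named fold changes, 11 of 14 members for WT and 7 of 16 for SIRT5F101L against Control kept direction and call under all alternatives, and 13 of 17 and 10 of 19 other genes did. Among members these include Cycs, Atp5b, Cox4i2, Cox6a1, Cox7a2l and Atp5g1 in both comparisons. Beside the 2 that turned, calls were lost 87 times, 17 of them with the slope covariate. Levels per kilobase moved beyond their SD 17 times with another transcript length. Depth limits Cox7a1 and Atp5o, which had few counts.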
